A study of Homo sapiens with 4 samples.

Results

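Genes of the kinetochore, the spindle checkpoint, anaphase and cytokinesis were compared between SNU638 cells with lowered ACTL6A and their controls. The members were 50 genes chosen by function, each read through every probe set annotated with its symbol alone. Of these, 49 had such a probe set, among 19775 genes on the array, and CENPP is not analysed here. The 49 genes were covered by 95 probe sets, from 1 to 6 per gene, and 27 of them had only 1. SNU638 is an established human gastric cancer cell line. The treatment notes describe lentiviral delivery of short hairpin RNA (shRNA) in the pLKO.1 vector, followed by puromycin selection. The control group carried a scrambled shRNA (scramble, 2 arrays) and the other group an shRNA against ACTL6A (sh-ACTL6A, 2 arrays). The notes name the hairpins shACTL6A-1 and shACTL6A-2, but no label says which hairpin an array held or whether arrays of a group are separate cultures. The spread behind each p-value may therefore be technical.

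ACTL6A encodes an actin-related subunit found in several chromatin remodelling complexes. The kinetochore is the protein assembly on each centromere that holds microtubules during mitosis. Its inner layer sits on nucleosomes carrying the histone variant CENPA, and its outer layer contacts the microtubule. Unattached kinetochores feed the spindle checkpoint, which keeps the anaphase-promoting complex inactive. Once that complex is active, securin is destroyed, separase opens the cohesin rings and the sister chromatids part, after which a contractile ring divides the cell. Most of these genes are transcribed mainly in G2 and mitosis, and their messages are abundant in dividing tumour cells.

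Many promoters of this kind carry a cell cycle homology region, a short element with the core TTTGAA that recruits the DREAM and MuvB complexes, together with CCAAT boxes bound by NF-Y. The sequences below are the 120 bases before the annotated start of 7 members, read 5′ to 3′ on the strand of the gene from the RefSeq promoter table (GRCh38.p14). They show the element close to the start in 6 promoters, picked from 9 genes that have it within 50 bases. Of the 6, 5 belong to genes with positive differences (sh-ACTL6A minus scramble) and 1, PLK1, to a gene with a negative one. BUB1B, INCENP and ZWINT, not shown, had log2 differences of 0.03, 0.14 and -0.04. CENPC, whose promoter has the element farther upstream, is shown for contrast. Capitals mark TTTGAA and CCAAT on either strand (TTCAAA and ATTGG on the opposite one), including overlapping matches.
ESPL1, chr12:53268179-53268298, plus strand: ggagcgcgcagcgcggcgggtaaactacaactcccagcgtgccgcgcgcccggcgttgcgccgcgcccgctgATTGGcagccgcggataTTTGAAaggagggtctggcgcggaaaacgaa
ANLN, chr7:36389742-36389861, plus strand: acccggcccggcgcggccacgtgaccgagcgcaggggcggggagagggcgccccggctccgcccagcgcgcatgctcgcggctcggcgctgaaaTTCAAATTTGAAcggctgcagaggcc
PRC1, chr15:90994536-90994655, minus strand: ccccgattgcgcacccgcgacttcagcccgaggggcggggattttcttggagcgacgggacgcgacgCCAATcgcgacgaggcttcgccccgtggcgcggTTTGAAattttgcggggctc
CDCA8, chr1:37692396-37692515, plus strand: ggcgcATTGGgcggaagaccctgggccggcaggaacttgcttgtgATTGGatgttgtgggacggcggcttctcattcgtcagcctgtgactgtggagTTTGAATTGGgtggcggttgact
CENPA, chr2:26785936-26786055, plus strand: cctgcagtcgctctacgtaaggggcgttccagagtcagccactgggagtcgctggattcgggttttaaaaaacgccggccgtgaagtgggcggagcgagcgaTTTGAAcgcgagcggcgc
PLK1, chr16:23678769-23678888, plus strand: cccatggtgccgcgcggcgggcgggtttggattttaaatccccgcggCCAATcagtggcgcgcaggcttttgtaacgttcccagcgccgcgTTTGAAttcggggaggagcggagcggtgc
CENPC, chr4:67545504-67545623, minus strand: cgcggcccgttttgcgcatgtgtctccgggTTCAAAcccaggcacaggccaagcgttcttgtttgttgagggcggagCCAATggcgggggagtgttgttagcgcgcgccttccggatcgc

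Promoters were found in that table for 40 of the 50 genes, 49 promoters in all, each covering 250 bases before and 50 after a start. The table held no entry for KNTC1, CENPH, TTK, BIRC5, CENPL, CENPM, BUB3, RACGAP1, KNL1 and AURKA. TTTGAA on either strand occurred in 46.9% of the members' promoters and in 15.2% of all 35116 promoters. Within 50 bases before the start it occurred in 20.4% of the members' promoters and 2.28% of all. CCAAT occurred in 67.3% against 34.6%, and GGCGG, a G+C-rich word within many promoters, in 91.8% against 59%. Among the 22199 promoters of protein-coding genes, CCAAT occurred in 34.7%, GGCGG in 71.6% and TTTGAA in 12.4%. TTTGAA within 50 bases before the start occurred in 1.76% of them. A match describes letters in the window and not a bound site. The 9 genes with TTTGAA within 50 bases of a start were ANLN, BUB1B, CDCA8, CENPA, ESPL1, INCENP, PLK1, PRC1 and ZWINT. Their median log2 difference, sh-ACTL6A minus scramble, was 0.18 (7 of 9 above 0), against 0.01 in the 30 tested members whose promoters lacked it there (16 above 0). With TTTGAA sought anywhere in the window, the medians were 0.03 in the 21 members with it and 0.02 in the 18 without. For CCAAT within 50 bases the order was the opposite, with -0.0001 in 11 members (5 above 0) against 0.03 in 28 (18 above 0). For CCAAT anywhere and for GGCGG within 50 bases the medians with and without the word were all 0.03. These medians were compared with no test, and no common pattern is drawn from them.

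ACTL6A itself was lower in sh-ACTL6A cells, which checks the labels. It read 11.92 and 11.82 (log2 signal) in scramble and 10.16 and 10.32 in sh-ACTL6A. It fell by 1.63 on the log2 scale (SE 0.14, limma adjusted p = 0.0408). Each gene was tested through its brightest probe set, wherever the mean signal of that probe set reached 5.63 (log2), and 12286 genes passed. Adjusted p stands for Benjamini-Hochberg adjustment over those genes. ACTL6A was the only gene below an adjusted p of 0.05, and that call was lost under several alternatives, among them quantile normalisation (adjusted p = 0.052). Median log2 signal ran from 5.70 to 5.83 over the arrays. Of the epithelial markers 7 of 8 reached the threshold, with summed levels of 15.52 and 15.75 (log2) in scramble and 15.30 and 15.52 in sh-ACTL6A. None of 6 leukocyte markers reached it, and 3 of 8 fibroblast and endothelial markers did (COL1A1, DCN and PECAM1).

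All 49 members with a probe set passed the signal threshold, and none was called. Their limma adjusted p values ran from 0.846 to 0.9999, where 0.00814% of all tested genes were below 0.05. At an unadjusted p under 0.05, 3 members were higher in sh-ACTL6A cells (CENPC, ESPL1 and ANLN), 6.12% of the 49, where 3.21% of all tested genes were. No member was lower at that level (limma, 0 of 49), where 2.30% of all tested genes were. The methods' t-test, run on the same values, put 6 members higher and 0 lower at an unadjusted p under 0.05, where 3.22% of all tested genes were higher and 2.25% lower, and called 0 members after adjustment. The members' differences had a median of 0.02, with quartiles of -0.05 and 0.16, against a median of 0.01 for all tested genes. They ranged from -0.38 (CENPE) to 0.81 (MAD1L1). MAD1L1, also among the 6 higher by the t-test, passed the signal threshold only through its sh-ACTL6A arrays. In all, 28 members lay above 0 and 21 below, 57.1% against 51.9% of all tested genes.

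The intervals show what these arrays could resolve. For 47 members the 95% confidence interval of the difference lay within 1 on the log2 scale either way, and the exceptions were CENPT and MAD1L1. This held for 95.9% of members and 81.7% of all tested genes. For 33 members the interval lay within 1.5-fold either way (67.3%, against 47.4% of all tested genes). The members were also brighter, with a median log2 level of 11.03 against 9.54 for all tested genes. The part of signal level in these shares was not tested. In bulk RNA, a change in the share of cells in mitosis and a change in RNA per cell cannot be told apart.

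Both sh-ACTL6A arrays read above both scramble arrays for 13 members, 26.5% of the 49, where this held for 19.3% of all tested genes. These were CENPC, CENPQ, CENPA, PMF1, NUF2, MAD1L1, BUB1, CDCA8, ESPL1, SGO2, ANLN, RACGAP1 and PRC1. MAD1L1 was among them though it passed the signal threshold only through its sh-ACTL6A arrays. SGO2 counted narrowly, its nearest arrays reading 11.441 in scramble and 11.442 in sh-ACTL6A. Both sh-ACTL6A arrays read below both scramble arrays for 2 members, CENPM and SGO1, 4.08% against 15.4% of all tested genes. CENPM counted narrowly too, its nearest arrays reading 10.441 in scramble and 10.435 in sh-ACTL6A. In other probe sets above the threshold the groups overlapped for SGO1, and for BUB1 and SGO2 among the 13. Those of ANLN and ESPL1 did not overlap. The 13 included at least 1 gene from each of the 6 role groups, and 3 of the 4 cytokinesis genes.

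**Figure D1:**
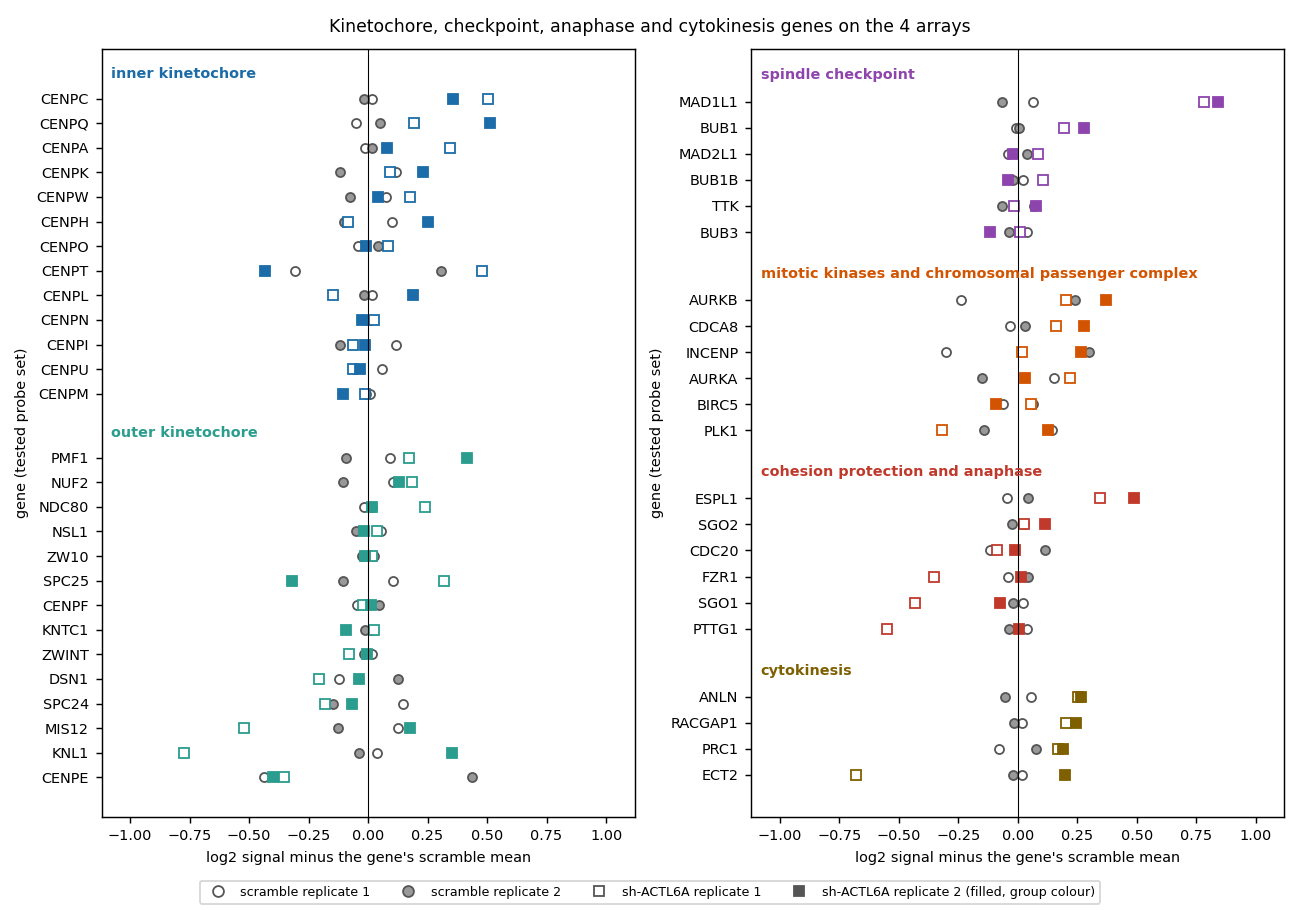
Log2 signal of each of the 49 members on each array, less the mean of the 2 scramble arrays for that gene, with members sorted by their difference within 6 role groups. Circles are scramble arrays and squares sh-ACTL6A arrays, open for replicate 1 and filled for replicate 2. ANLN, RACGAP1, ESPL1 and CENPC have both squares to the right of both circles, while ECT2, KNL1, PTTG1, MIS12, SGO1 and FZR1 have the open square alone far to the left.

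The inner kinetochore was represented by 13 tested genes, CENPA and genes of the constitutive centromere-associated network, 9 with a positive and 4 with a negative difference (median 0.04). CENPC, which binds the CENPA nucleosome and the outer layer, read 9.13 and 9.10 in scramble and 9.62 and 9.47 in sh-ACTL6A. The groups did not overlap, and the difference of 0.43 on the log2 scale (SE 0.16) had a limma adjusted p = 0.859. CENPQ, a subunit of the CENP-O group, read 9.65 and 9.75 in scramble and 9.90 and 10.22 in sh-ACTL6A, a difference of 0.35 (SE 0.17). Its second sh-ACTL6A array stood apart from the other three.

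CENPA, the centromeric histone H3 variant, read 10.39 and 10.41 in scramble and 10.74 and 10.48 in sh-ACTL6A, a difference of 0.21 (SE 0.15) with no overlap, and of 0.08 without the first sh-ACTL6A array. Its tested probe set is of a kind whose probes may match other transcripts. The other 10 inner genes had differences between -0.06 (CENPM) and 0.16 (CENPK). CENPN and CENPU, which bind the CENPA nucleosome and Polo-like kinase 1 respectively, had differences of 0.00 and -0.05. CENPT, which anchors the NDC80 complex to DNA, read 5.81 and 6.42 in scramble and 6.59 and 5.68 in sh-ACTL6A. Its groups overlapped, and its difference of 0.02 had an interval from 0.50-fold to 2.07-fold.

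Of 14 outer kinetochore genes, 5 lay above 0 and 9 below, with a median of -0.02. PMF1, a subunit of the MIS12 complex, read 9.20 and 9.02 in scramble and 9.28 and 9.53 in sh-ACTL6A, a difference of 0.29 (SE 0.18). NUF2, the partner of NDC80 in the microtubule-binding complex, read 11.35 and 11.13 in scramble and 11.42 and 11.37 in sh-ACTL6A, a difference of 0.16 (SE 0.14), and of 0.05 without the second scramble array. For both genes the groups did not overlap, though the nearest arrays of PMF1 and of NUF2 lay close together.

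CENPE, the kinesin that carries chromosomes to the metaphase plate, read 9.73 and 10.61 in scramble and 9.82 and 9.77 in sh-ACTL6A. Its difference of -0.38 (SE 0.27, interval 0.50-fold to 1.19-fold) came from the second scramble array, and without that array it was 0.06. The 4 subunits of the NDC80 complex had differences of 0.13 for NDC80, 0.16 for NUF2, -0.12 for SPC24 and 0.00 for SPC25. SPC25 read 10.88 and 10.67 in scramble and 11.09 and 10.45 in sh-ACTL6A, so its sh-ACTL6A arrays lay on opposite sides of the controls. In the MIS12 complex DSN1 differed by -0.12, NSL1 by 0.01 and MIS12 by -0.17. ZWINT, ZW10 and KNTC1, which recruit and form the RZZ complex, differed by -0.04, 0.00 and -0.03, and CENPF, a large coiled-coil protein of the fibrous corona, by 0.00.

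The 6 spindle checkpoint genes had a median of 0.03, with 5 above 0. BUB1, the kinase that marks centromeres and recruits checkpoint proteins, read 11.61 and 11.63 in scramble and 11.81 and 11.90 in sh-ACTL6A. Its groups did not overlap, and it differed by 0.24 (SE 0.12, limma adjusted p = 0.918). Its other probe sets above the threshold differed by 0.25 (SE 0.26) and -0.01 (SE 0.35), with overlapping groups in both. MAD1L1, which tethers MAD2 at unattached kinetochores, had the highest difference of all members. It read 5.48 and 5.35 in scramble and 6.19 and 6.25 in sh-ACTL6A, a difference of 0.81 (SE 0.38, interval -0.07 to 1.69, adjusted p = 0.917). Its scramble arrays lay under the signal threshold of 5.63 and only its sh-ACTL6A arrays above it, so it was tested because of the group where it was high. The remaining checkpoint genes were bright and close to 0. MAD2L1, BUB1B and TTK each differed by 0.03, and BUB3 read 13.81 and 13.73 in scramble and 13.78 and 13.66 in sh-ACTL6A, a difference of -0.05 (SE 0.09).

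Mitotic kinases and the chromosomal passenger complex had a median of 0.13 over 6 genes, with 4 above 0. CDCA8 (borealin), which helps to place the passenger complex on centromeres, read 11.13 and 11.19 in scramble and 11.32 and 11.44 in sh-ACTL6A. The groups did not overlap, and the difference was 0.22 (SE 0.13). AURKB, the kinase of the complex, read 10.14 and 10.62 in scramble and 10.58 and 10.75 in sh-ACTL6A, a difference of 0.29 (SE 0.19). INCENP, its scaffold, read 9.03 and 9.63 in scramble and 9.35 and 9.60 in sh-ACTL6A, a difference of 0.14 (SE 0.23). Both had their lowest value on the first scramble array and overlapping groups. Without that array AURKB differed by 0.05. BIRC5 (survivin), the remaining subunit, differed by -0.02. AURKA, which acts at spindle poles, read 12.19 and 11.89 in scramble and 12.26 and 12.07 in sh-ACTL6A, a difference of 0.12 (SE 0.14). The mean of its probe sets differed by 0.03, and its second brightest probe set by -0.05. PLK1, the kinase of mitotic entry and progression, differed by -0.10 (SE 0.24).

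Of the 6 genes of cohesion protection and anaphase, 2 lay above 0 and 4 below, with a median of -0.11. ESPL1 (separase), the protease that cuts cohesin, read 10.43 and 10.52 in scramble and 10.82 and 10.96 in sh-ACTL6A. The groups did not overlap, and the difference of 0.42 (SE 0.14, interval 0.09 to 0.75) corresponded to 1.33-fold. It had the smallest p of any member (limma adjusted p = 0.846). Its other probe set read 9.63 and 9.92 in scramble and 10.06 and 10.16 in sh-ACTL6A, a difference of 0.34. Both probe sets of ESPL1 thus read higher on both sh-ACTL6A arrays.

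PTTG1 (securin), the inhibitor of separase, read 13.87 and 13.79 in scramble and 13.28 and 13.83 in sh-ACTL6A, a difference of -0.27 (SE 0.16). Only the first sh-ACTL6A array was low, and the groups overlapped through the other. PTTG1 has closely related copies, and its only probe set may match them. SGO1 (shugoshin), which guards centromeric cohesin, read 7.56 and 7.52 in scramble and 7.11 and 7.47 in sh-ACTL6A, a difference of -0.25 (SE 0.25). Its groups did not overlap, but the second sh-ACTL6A array was close to the controls. The other SGO1 probe set read 5.96 and 7.11 in scramble and 6.18 and 6.91 in sh-ACTL6A. There the groups overlapped, with a difference of 0.01. SGO2 differed by 0.07, and its other probe set by -0.14 with overlapping groups. CDC20 and FZR1, the activators of the anaphase-promoting complex, differed by -0.05 and -0.17.

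The 4 cytokinesis genes had the highest median of the role groups, 0.20, with 3 above 0 and not overlapping between groups, where 19.3% of all tested genes were higher without overlap. ANLN (anillin), a scaffold of the contractile ring, read 12.73 and 12.62 in scramble and 12.93 and 12.94 in sh-ACTL6A. Its difference was 0.26 (SE 0.10, limma adjusted p = 0.862). The other ANLN probe set read 11.90 and 11.96 in scramble and 12.29 and 12.21 in sh-ACTL6A, a difference of 0.32, again with no overlap. RACGAP1, a subunit of centralspindlin, read 12.26 and 12.23 in scramble and 12.45 and 12.49 in sh-ACTL6A, a difference of 0.22 (SE 0.11). PRC1, which bundles the microtubules of the central spindle, read 12.36 and 12.52 in scramble and 12.61 and 12.63 in sh-ACTL6A, a difference of 0.18 (SE 0.11). For these 3 genes both sh-ACTL6A arrays read nearly the same value. ECT2, the exchange factor that activates RhoA at the division plane, was the exception, with 12.94 and 12.90 in scramble and 12.24 and 13.11 in sh-ACTL6A, a difference of -0.24 (SE 0.24).

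**Figure D2:**
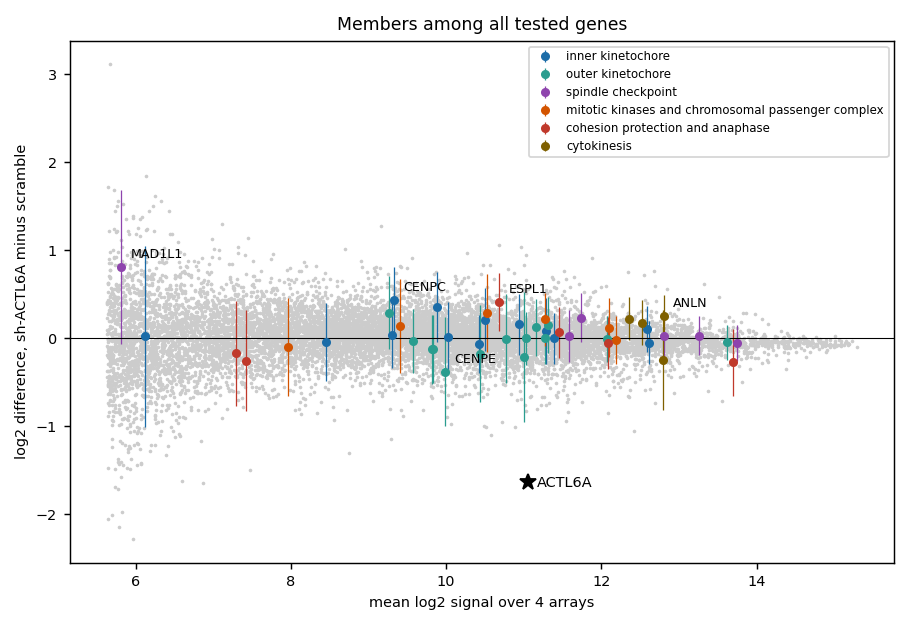
Log2 difference (sh-ACTL6A minus scramble) against mean log2 signal over the 4 arrays for the 12286 tested genes (grey), with the 49 members in the colours of their role groups and bars for 95% confidence intervals. ACTL6A, marked by a star, lies at -1.63, while the members lie between -0.38 and 0.81, inside the cloud of all genes.

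The replicate arrays differed from each other for several members. The root mean square difference between the 2 sh-ACTL6A arrays was 0.33 on the log2 scale over the members, and between the 2 scramble arrays 0.23. Over all tested genes, whose median level was lower, these values were 0.44 and 0.37. Both sh-ACTL6A arrays lay on the same side of the scramble mean for 57.1% of members and 57.9% of all tested genes. The members' median difference from the scramble mean was 0.03 on each of the 2 sh-ACTL6A arrays.

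The first sh-ACTL6A array read at least 0.3 below the other three arrays for 6 members (ECT2, FZR1, KNL1, MIS12, PTTG1 and SGO1). That is 12.2% of the members and compares with 6.93% of all tested genes. The limit of 0.3 was chosen after the values were seen. KNL1, the outer kinetochore scaffold for BUB proteins, read 11.15 and 11.08 in scramble and 10.34 and 11.47 in sh-ACTL6A, and its sh-ACTL6A arrays lay on either side of the controls. Its other probe sets above the threshold stood alike, with their lowest values on the first sh-ACTL6A array (7.41 in the brighter of them, against 8.65 on the other sh-ACTL6A array). MIS12 read 10.64 and 10.39 in scramble and 9.99 and 10.69 in sh-ACTL6A. The second ECT2 probe set also had its lowest value, 10.00, on the first sh-ACTL6A array, against 10.74 to 10.86 elsewhere. Other probe sets of FZR1 and SGO1 did not all stand alike. The second brightest of FZR1 was lowest on the first sh-ACTL6A array (6.88). The next was lowest on the first scramble array (6.93), and the dimmest was highest on the first sh-ACTL6A array (6.92). The other SGO1 probe set was lowest on the first scramble array (5.96).

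With the first sh-ACTL6A array left out, the differences were 0.35 for KNL1, 0.20 for ECT2, 0.18 for MIS12, 0.01 for FZR1, 0.00 for PTTG1 and -0.07 for SGO1. With the second sh-ACTL6A array left out instead, limma called KNL1, PTTG1 and ECT2 lower, the lowest adjusted p being 0.00106, where 1.96% of all tested genes were called lower. That fit assumes for the remaining array the spread of the scramble arrays. The log2 gap between the 3′ and 5′ control probe sets of ACTB, a measure of RNA integrity, was 1.63 and 0.78 in scramble and 1.21 and 0.78 in sh-ACTL6A. The gap for GAPDH was 0.29 and 0.10 in scramble and 0.22 and 0.07 in sh-ACTL6A. Both gaps were larger on the first array of each group, and their part in the results was not tested. On the first scramble array, 2 members (AURKB and INCENP) stood at least 0.3 below the other three, 4.08% against 5.91% of all tested genes.

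Probe sets of the same gene were compared wherever they reached the signal threshold, as 86 of the 95 did. In 20 members at least 2 probe sets did, and in 8 of these all of them had the same sign (ANLN, AURKB, CENPL, ECT2, ESPL1, KNL1, MAD2L1 and NSL1). No member probe set was called when all probe sets were tested (lowest limma adjusted p = 0.96). In 5 members, probe sets of opposite sign lay more than 0.3 apart. In CENPO the tested probe set read 9.25 and 9.33 in scramble and 9.37 and 9.28 in sh-ACTL6A, a difference of 0.04, while the other differed by -0.65 (SE 0.38). In CENPI the tested probe set read 8.59 and 8.36 in scramble and 8.41 and 8.46 in sh-ACTL6A, a difference of -0.04, while another differed by 0.27 (SE 0.24).

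For BIRC5 the tested probe set read 12.13 and 12.26 in scramble and 12.25 and 12.11 in sh-ACTL6A, and the 4 probe sets differed by between -0.47 and 0.01. For FZR1 the tested probe set read 7.34 and 7.43 in scramble and 7.03 and 7.40 in sh-ACTL6A, and the 4 probe sets differed by between -0.21 and 0.38. The 6 probe sets of BUB3 differed by between -0.30 and 0.24, with the extremes in its dimmest ones. In these 5 genes the direction thus depended on the probe set.

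**Figure D3:**
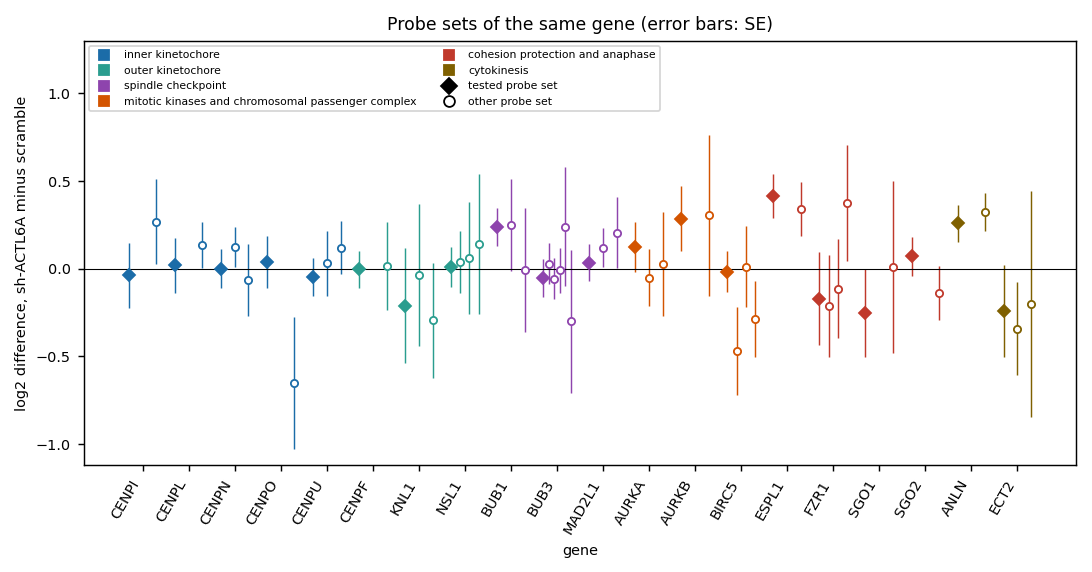
Log2 difference (sh-ACTL6A minus scramble) of every probe set above the signal threshold in the 20 members that had at least 2, with SE as bars. Diamonds are the tested probe sets and circles the others. Both ANLN and both ESPL1 probe sets lie above 0, while those of CENPO, BIRC5, BUB3, CENPI and FZR1 fall on both sides, over 0.3 apart. Probe sets of AURKA, BUB1, CENPF, CENPN, CENPU, SGO1 and SGO2 also fall on both sides, closer together.

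Other genes of the same processes were described from 7 further lists of 119 genes chosen for function, and none of their tested genes was called. At an unadjusted p under 0.05 by limma, 2 genes of CENPA loading and further kinetochore functions were higher, and 1 gene each of cohesin and condensin, mitotic entry, and centrosome and spindle assembly. At that level 1 gene of cytokinesis and abscission was lower, and no gene of the anaphase-promoting complex or the proliferation markers was on either side. The shares of all tested genes at that level were those given above, 3.21% higher and 2.30% lower. Among 17 genes of CENPA loading and further kinetochore functions, 11 lay above 0, with a median of 0.06. CENPV, a protein needed for centromere organisation and cytokinesis, read 11.04 and 11.05 in scramble and 11.84 and 11.59 in sh-ACTL6A, a difference of 0.67 (SE 0.14, limma adjusted p = 0.449). CLASP1, a microtubule plus-end protein at kinetochores, differed by 0.44 (SE 0.14, adjusted p = 0.788), with 10.34 and 10.39 in scramble and 10.86 and 10.75 in sh-ACTL6A. For both genes the groups did not overlap.

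Of 16 tested subunits and partners of the anaphase-promoting complex, 4 lay above 0 and 12 below, with a median of -0.06. The scaffold ANAPC2 differed by 0.46 (SE 0.27) and CDC23 by -0.20 (SE 0.14). Among 19 genes of cohesin and condensin, 9 lay above 0, with a median of -0.02. SMC1A, a cohesin core subunit, read 12.15 and 12.03 in scramble and 12.46 and 12.49 in sh-ACTL6A, a difference of 0.39 (SE 0.11, limma adjusted p = 0.715). MAU2, part of the cohesin loader, differed by 0.32 (SE 0.19).

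The further cytokinesis and abscission genes did not follow ANLN, RACGAP1 and PRC1, as 6 of 16 lay above 0 and 10 below, with a median of -0.03. Without overlap, 1 of the 16 was higher and 3 were lower. SEPTIN2, a filament-forming GTPase of the cleavage furrow, read 13.92 and 13.89 in scramble and 12.73 and 13.67 in sh-ACTL6A, a difference of -0.71 (SE 0.25, limma adjusted p = 0.851). It too was far lower on the first sh-ACTL6A array than on the other. MYH10, a non-muscle myosin heavy chain, differed by 0.26 (SE 0.13).

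Mitotic entry genes and their transcription factors had 11 of 20 above 0 and a median of 0.06. CDC25C, a phosphatase that activates CDK1, differed by 0.62 (SE 0.26), with 9.07 and 9.66 in scramble and 9.67 and 10.28 in sh-ACTL6A, and CDC25A by 0.37 (SE 0.18). Centrosome and spindle assembly genes had 11 of 20 above 0 and a median of 0.01. HMMR, a spindle assembly factor, differed by 0.29 (SE 0.11) and NUSAP1 by 0.21 (SE 0.10). Of 6 proliferation markers, 3 lay above 0, with a median of 0.02. MKI67, the gene of the Ki-67 antigen, read 10.96 and 11.10 in scramble and 11.31 and 11.31 in sh-ACTL6A, a difference of 0.28 (SE 0.13). RRM2, a subunit of ribonucleotide reductase, differed by 0.21 (SE 0.10). The remaining markers were TOP2A at 0.05, MCM2 at -0.01, TYMS at -0.11 and PCNA at -0.19 (SE 0.09). PCNA was lower without overlap.

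**Figure D4:**
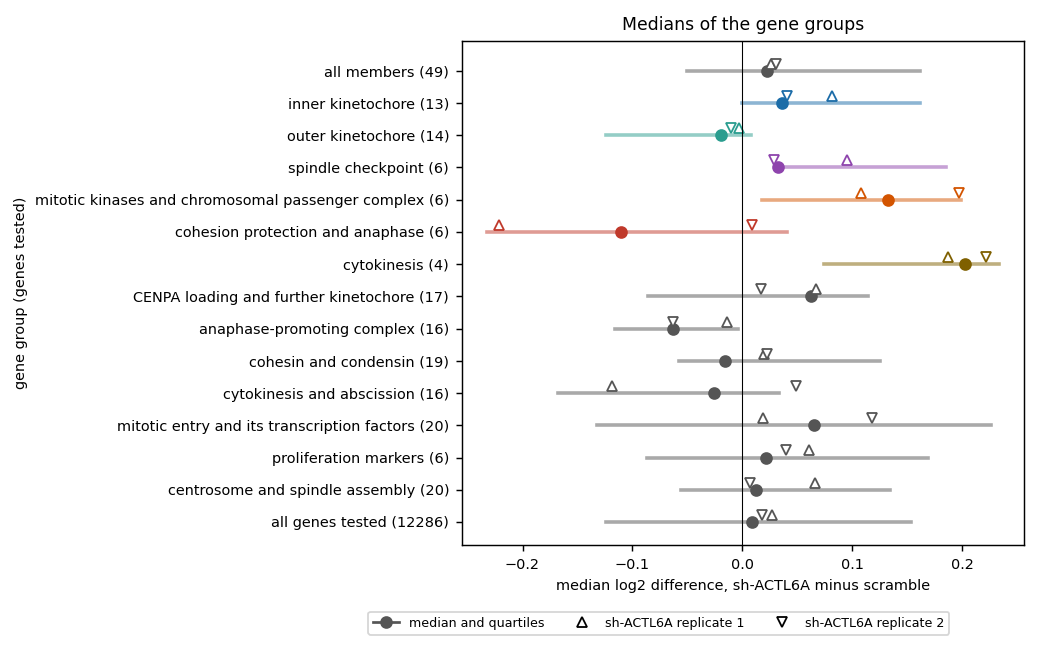
Median log2 difference (sh-ACTL6A minus scramble) of the members, their 6 role groups, the 7 further lists and all tested genes, with lines from the lower to the upper quartile and the number of genes tested in brackets. Triangles give the median of each sh-ACTL6A array against the scramble mean. Cytokinesis stands highest at 0.20 and cohesion protection and anaphase lowest at -0.11, the latter through sh-ACTL6A replicate 1 at -0.22.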

How the data were processed

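Total RNA from SNU638 cells was hybridised as biotin-labelled cRNA to 4 single-colour Affymetrix arrays, grouped by the sample labels. The deposited values are log2 signals of 54675 probe sets. The submitters' processing notes name MAS5, and the version is not given in the sources read. The 2% trimmed mean of the linear signal was 500.0 on all 4 arrays, so the deposited log2 values had been scaled globally, which leaves differences in the shape of the distributions in place. The number of arrays limits the precision. The labels give the medium as DMEM and the study's methods as RPMI.

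Of 54613 non-control probe sets, 41091 had 1 gene symbol in the platform annotation, 1801 several and 11721 none, and 54 of the gene identifiers used were not in the gene table. Each gene was taken as its probe set with the highest mean and tested where that mean reached the 50th percentile. The test was limma 3.58.1 under R 4.3.3 (lmFit and eBayes, with the variance trend on signal, 7.65 degrees of freedom, 2-sided), with Benjamini-Hochberg adjustment over 12286 genes and a threshold of 0.05. The procedure was run on simulated arrays, whose noise was independent with a spread set by signal level alone. They held no array that stood apart from the others, so that run does not cover such arrays. Promoter motifs were counted as exact words.

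The members and lists were chosen with earlier results of these data known, as were the tests. The rule for named genes took, for each role group, the 3 members with the smallest p (2 in a group of under 5), members with probe sets of opposite sign over 0.3 apart, and 2 genes per further list. KNL1, MIS12, ECT2, PRC1, SPC25, CENPT, INCENP and the remaining proliferation markers were added after their values were seen. The alternatives changed the scaling (quantile normalisation, median centring), the filter (none, or the 75th percentile), the probe sets (averaged within a gene, without shared-sequence ones, or every one tested) and the low signals (16 added before log2). They also changed the test (no variance trend, a replicate block, the methods' t-test) and left out single arrays in turn. Counts of members without overlap were added as alternatives after seeing the data.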

Additional observations from a re-analysis of the deposited data

How the results depend on the processing

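With 2 arrays per group, only differences that are large against the replicate spread could be called, and dim probe sets such as those of MAD1L1 and CENPT left wide intervals. The ACTL6A difference ran from -1.71 to -1.55 with single arrays left out. Its adjusted p was 0.052 with quantile normalisation (-1.64), 0.0797 with no filter, 0.556 with no intensity trend, 0.844 by the methods' t-test and 0.281 with every probe set tested, at -1.63 in these 4, against 0.0408. The call was also lost without scramble replicate 1 (adjusted p = 0.9996) or 2 (0.567). The probe sets without shared sequence hold none for ACTL6A, so that alternative was not run for it. Genes called numbered 1, and 0 with quantile normalisation, no filter, no intensity trend, the t-test, every probe set tested or no shared sequence. They ranged from 0 to 401 with single arrays left out, 401 without sh-ACTL6A replicate 1 and 335 without replicate 2. Members called were 0 throughout, except 3 without sh-ACTL6A replicate 2 (range 0 to 3). The members' median of 0.0228 became 0.00787 with quantile normalisation and 0.0542 with median centring, the latter of which moved the median of all genes from 0.01 to 0.04 and the share above 0 from 51.9% to 58.3%. It ranged from 0.0264 to 0.0457 with single arrays left out, the highest without scramble replicate 1. Members lower without overlap were 1 with median centring and 3 with quantile normalisation or without shared sequence, against 2, and members higher without overlap ran from 10 to 15 against 13.

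Of 306 alternative values for 21 named members, 289 kept direction and side of the threshold and 16 changed sign. BIRC5 became 0.0027 with quantile normalisation and 0.015 with median centring, CENPO -0.0030 with quantile normalisation and -0.31 with the mean of probe sets, CENPI 0.11 with that mean, and BUB3 0.24 without shared sequence. With single arrays left out, the ranges that crossed 0 were -0.0266 to 0.274 for AURKA, -0.0903 to 0.0565 for BIRC5, -0.115 to 0.00794 for BUB3, -0.815 to 0.0616 for CENPE, -0.156 to 0.0804 for CENPI, -0.00869 to 0.0815 for CENPO, -0.354 to 0.0130 for FZR1 and -0.549 to 0.00378 for PTTG1. They kept their sign but moved by over 1.5 times for CENPQ (0.195 to 0.512), CENPA (0.0792 to 0.343), PMF1 (0.172 to 0.414), NUF2 (0.0501 to 0.263), AURKB (0.0457 to 0.527) and SGO1 (-0.431 to -0.0736). AURKA became 0.0328 with the mean of probe sets and 0.0255 without shared sequence. The replicate block called 2 genes against 1, and 0 members. With it, 477 genes were higher and 412 lower at an unadjusted p under 0.05 by limma, against 394 and 282. ACTL6A had a limma adjusted p = 0.00704 with it. Deviations of same-numbered arrays correlated at 0.06 over all tested genes and -0.20 over the members, and the numbers were not taken to pair the samples. The ACTB and GAPDH gaps were, however, larger on the first array of each group. A difference shared by number was not tested beyond the replicate block.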
